A study of Homo sapiens with 6 samples.

Results

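The long arm of human chromosome 1 holds a tandem array of transfer RNA (tRNA) genes. Its members were taken by position alone, as the windows labelled tRNA that begin in a fixed stretch around these repeats (GRCh38), of which the first starts at chr1:161390030 and the last ends at 161621924. The rule found 35 of the 534 tRNA windows, among 53603 windows in the whole table. Each window spans 400 bp, from 150 bp before to 250 bp after a start site, and so contains the whole of a tRNA gene that begins there. RefSeq genes named 30 of the 35, in 8 isoacceptors, the groups of tRNA genes that share an amino acid and an anticodon. They were 6 glycine TCC (Gly-TCC), 6 leucine CAG (Leu-CAG), 5 glycine GCC (Gly-GCC), 5 aspartate GTC (Asp-GTC), 4 glutamate CTC (Glu-CTC), 2 asparagine GTT (Asn-GTT), 1 glutamate TTC (Glu-TTC) and 1 valine CAC (Val-CAC) gene. The other 5 windows held no RefSeq tRNA gene at their start site and are called by their label.

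The study asked how La depletion affects small RNA made at promoters in HEK293T, a line of human embryonic kidney origin that carries the SV40 large T antigen. Cells of both arms were transfected with siRNA at 150 nM with Lipofectamine RNAiMAX for 48 h, either a control siRNA (sicontrol) or one against La (siLa). La, encoded by SSB, is an RNA-binding protein of the nucleus. Each arm had 3 libraries of small RNA, described in the series as biological replicates, and all 6 were phosphatase-treated and then kinase-treated before ligation.

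RNA polymerase III reads tRNA genes from 2 promoter elements inside the gene, the A box and the B box, and stops at a short run of T. The new transcript therefore ends in a run of U, which La binds and shields from 3′ exonucleases until the leader and trailer have been cut off. Several identical genes usually encode 1 tRNA, and a read from the mature tRNA or from a fragment of it cannot show which copy it came from.

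The sequences of 2 whole array genes, TRV-CAC1-1 and TRE-TTC4-2, are shown first because their exact letters bear on which windows can share reads. They were read from GENCODE release 29 transcripts (GRCh38) whose exons cover them, are written 5′ to 3′ on the minus strand and run to the end of the first T run after the gene. Capitals mark the letters of a B box inside the gene (GGTTCGA, any 2 bases, then CC) and the T run behind it. TRE-TTC4-1, a copy of TRE-TTC4-2 far outside the array, is set beside it.
TRV-CAC1-1, chr1:161399683-161399772: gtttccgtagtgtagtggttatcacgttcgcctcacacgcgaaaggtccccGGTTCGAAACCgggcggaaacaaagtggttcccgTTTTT
TRE-TTC4-2, chr1:161422081-161422164: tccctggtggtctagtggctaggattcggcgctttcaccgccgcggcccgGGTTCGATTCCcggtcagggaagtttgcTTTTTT
TRE-TTC4-1, chr1:16535272-16535350: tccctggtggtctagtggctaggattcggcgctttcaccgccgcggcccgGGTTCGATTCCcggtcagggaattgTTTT

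TRE-TTC4-2 and TRE-TTC4-1 had 0 differences over the 72 bases of the gene and 24 over the 30 bases behind it. The B box letters lay at bases 52 to 62 of TRV-CAC1-1 and at bases 51 to 61 of TRE-TTC4-2, with 0 matches on the other strand of either gene. Among 35116 RefSeq promoter windows (GRCh38.p14), 0.057% held these letters on either strand in a stretch as long as these genes. The T run counted 5 bases behind TRV-CAC1-1, 6 behind TRE-TTC4-2 and 4 behind TRE-TTC4-1, and a run of 4 T stood on the gene strand in 12.2% of promoter stretches of 30 bases. A match in letters is a description and not a measured site.

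The aspartate genes show how alike the tandem units are. Below are the 37 bases before the gene in lower case and its first 17 bases in capitals, for the first and last Asp-GTC copies of the array and for TRD-GTC2-11 on chromosome 17, all on the minus strand.
TRD-GTC2-1, chr1:161440880-161440933: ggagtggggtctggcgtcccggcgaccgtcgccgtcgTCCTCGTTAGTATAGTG
TRD-GTC2-5, chr1:161470470-161470523: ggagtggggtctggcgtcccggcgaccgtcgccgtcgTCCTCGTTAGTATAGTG
TRD-GTC2-11, chr17:8222293-8222346: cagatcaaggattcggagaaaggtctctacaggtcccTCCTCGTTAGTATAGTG

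The 2 array copies matched at every base shown, while TRD-GTC2-11 differed from them at 29 of the 37 flanking bases and at 0 of the 17 gene bases. For glycine GCC, the array gene TRG-GCC2-1 had 0 differences over 71 bases from TRG-GCC2-4 on chromosome 16, whose first 30 bases (chr16:70779080-70779109, minus strand) are printed here as the start of that shared sequence.
TRG-GCC2-4: gcattggtggttcagtggtagaattctcgc

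Along the chromosome the repeat was regular. The Asp-GTC, Glu-CTC and Gly-GCC1 genes, TRL-CAG1-1 to TRL-CAG1-5 and TRG-TCC2-2 to TRG-TCC2-5 came back at a spacing of 7360 to 7431 bp, while TRL-CAG1-6 and TRG-TCC2-6 lay beyond these units. Of the 30 named genes, 19 lay on the minus strand and 11 on the plus strand. In GENCODE release 29, 24 genes lay in introns of lncRNA genes, 21 of them in AL592295.3 and 3 in AL590385.2. TRV-CAC1-1 and TRE-TTC4-2 lay whole within exons of the lncRNA AL592295.4, which runs on the opposite strand. TRD-GTC2-1 and TRD-GTC2-5 overlapped a lncRNA exon in part, and TRL-CAG1-5 lay between genes. TRG-GCC2-1 lay opposite a UTR exon of FCGR2A, which encodes an Fc receptor. The 27 windows of other classes that begin in the same fixed stretch had 32 counts in all over the 6 libraries, so these windows were almost unread.

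Library totals ran from 3066299 to 4105806 counts. At the start site of SSB, window PCG_40419 had 4, 3 and 3 counts in control replicates 1 to 3 and 1, 0 and 0 in knockdown replicates 1 to 3, and PCG_12982 had 0, 0 and 1 against 0, 2 and 0. These count small RNA at a promoter and not the mRNA, so the extent of the knockdown cannot be read from them. Read counts do not separate fewer transcripts per cell from fewer cells or from a change in how RNA ends are cut.

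Levels differed widely between the isoacceptors of the array. Asp-GTC, Glu-CTC and Gly-GCC supplied most of its reads, with mean shares of the array's counts of 43.0%, 27.1% and 25.5% in the control arm. Glu-TTC, Gly-TCC, Val-CAC, Leu-CAG and Asn-GTT together supplied the small remainder, from 1.17% for Glu-TTC down to 0.458% for Asn-GTT. All windows have the same length, so their CPM (counts scaled to library size with TMM factors) were not scaled by length. CPM gives a level of reads and not an amount of tRNA.

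**Figure D1:**
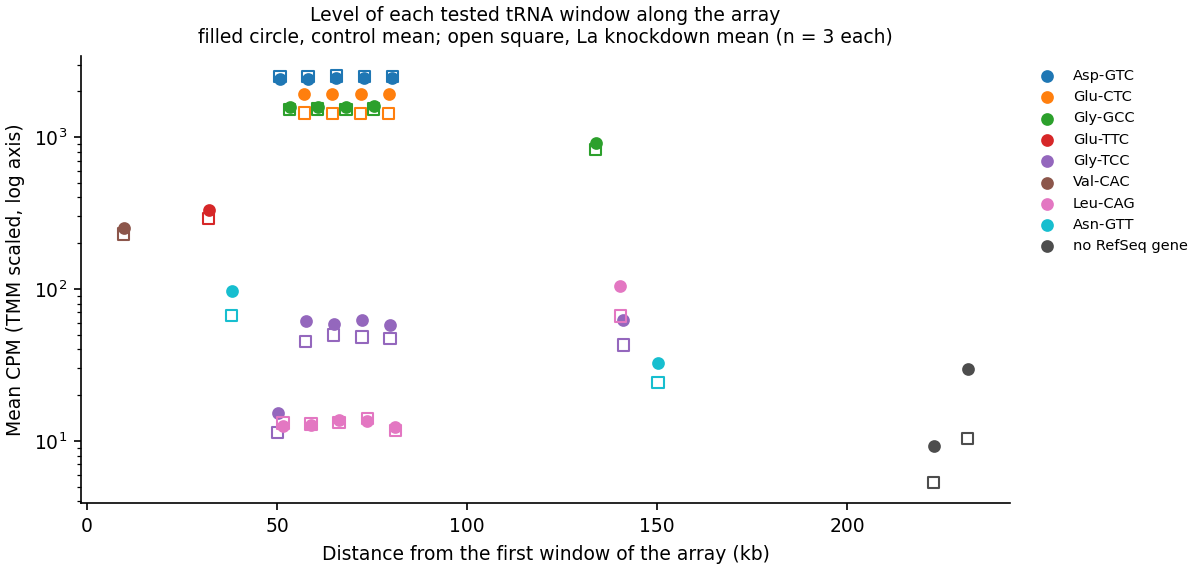
Mean CPM on a log axis of the 32 tested array windows against the distance in kb from the first window, with filled circles for the control mean and open squares for the La knockdown mean (n = 3 each). Asp-GTC, Glu-CTC and Gly-GCC1 copies recur at near-constant heights, TRG-GCC2-1 stands below the Gly-GCC1 copies, and TRL-CAG1-6 stands above the other Leu-CAG copies.

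Copies of 1 gene within the tandem units had nearly equal counts. The 5 Asp-GTC windows had 8810 to 9093 counts in control replicate 1 and 8166 to 8300 in knockdown replicate 1. Their coefficient of variation (CV) between copies was 0.676% to 1.32% over the 6 libraries, where counting error alone gives 1.00% to 1.16%. The CV between copies was 0.633% to 1.80% for the 4 Glu-CTC windows and 0.635% to 2.08% for the 4 Gly-GCC1 windows, beside counting errors of 1.05% to 1.55% and 1.20% to 1.54%. Whether such copies shared reads or were each read equally was not tested, so what is printed for 1 copy is uncertain and the copies are not taken as separate measurements.

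Copies at other loci were near to these in some cases and not in others. TRD-GTC2-11 on chromosome 17, whose flank differs from that of the array copies, had 9102, 7958 and 10158 counts in control replicates 1 to 3. In the knockdown libraries it had 8523, 7662 and 7604 counts. TRD-GTC2-1 of the array had 8988, 8009 and 9782 control counts and 8300, 7381 and 7644 knockdown counts. TRE-TTC4-2 had 1544, 998 and 1156 control counts and 897, 742 and 1065 knockdown counts. Its identical copy outside the array, TRE-TTC4-1, had 1598, 1026 and 1212 and then 877, 746 and 995. In these pairs the array copy and the distant copy had close counts in every library. Another pair did not. TRG-GCC2-1 had 3562, 2933 and 3617 control counts and 2228, 2597 and 2984 knockdown counts. TRG-GCC2-4, identical over the gene, had 2744, 2258 and 2640 and then 1876, 1992 and 2315, lower than the array copy in every library. TRD-GTC2-8 on chromosome 12, with 11570, 10241 and 13342 control counts and 10554, 9528 and 9811 knockdown counts, likewise stood above every Asp-GTC copy of the array in every library.

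The first comparison asked which array windows changed when La was depleted. Of the 35 windows 32 passed the filter on low counts, and 0 were called lower and 0 higher at an adjusted p under 0.05 in edgeR's quasi-likelihood test over 1064 windows. Over all tested windows, 4.79% were called lower and 0.658% higher (51 and 7 windows, against 36 and 58 with upper quartile scaling), and over the 414 other tRNA windows tested 7.49% were called lower. At an unadjusted p under 0.05 the array had 2 lower and 0 higher windows, beside 14.2% lower over all windows. With DESeq2, 1 of the 32 array windows was called lower, tRNA_52518, beside 7.14% of all windows. The 3 windows not tested, tRNA_52618, tRNA_52619 and tRNA_52620, had at most 4 counts in any library.

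Fitted log2 fold changes of the 32 windows had a median of -0.16, with 24 below 0 and 8 above. The number below 0 was 19 with RLE factors, 31 with library size alone and 13 with upper quartile factors, so the sign of a small change depends on the scaling. The median was -0.05 over all windows tested and -0.45 over the other tRNA windows. Upper quartile scaling turned the array median to 0.16 and moved that of all windows from -0.05 to 0.26. Set against the median of all windows, the array's median was lower by 0.10, 0.10, 0.10 and 0.10 on the log2 scale with TMM, RLE, library size and upper quartile scaling. Scaling moves all windows nearly alike, so these 4 values could hardly differ. Other settings moved the gap. The array and all-window medians were -0.35 and -0.08 without knockdown replicate 3 and -0.38 and 0.04 without a filter. They were -0.17 and -0.10 with a filter at a mean of 20 counts. In 10 of the 32 windows (31.2%) all 3 knockdown libraries lay below all 3 control libraries, and in 0 windows all lay above. The lower pattern was present in 17.9% of all windows tested and in 34.8% of the other tRNA windows, and the higher one in 14.1% and 3.14%. All 4 Glu-CTC windows were among the 10, and all 5 Asp-GTC windows were among the 8 with a fitted value above 0. Copies that can share reads are not separate measurements, so these counts of windows only describe the array.

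Because identical copies can share reads, the windows of each isoacceptor were summed and tested in the same table. None of the 8 sums was called with edgeR (0 also at an unadjusted p under 0.05) or with DESeq2 (0). The 3 most read are described first.

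Aspartate GTC was the most read. Its sum was 11641, 11925 and 12872 CPM in control replicates 1 to 3 and 14641, 10941 and 12024 CPM in knockdown replicates 1 to 3. The arms overlapped, with knockdown replicate 1 the highest of the 6 libraries. The log2 fold change was 0.04 (SE 0.19, 95% interval -0.39 to 0.47, edgeR adjusted p = 0.897).

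Glutamate CTC was next. Its sum was 9337, 6546 and 7144 CPM with control siRNA and 6159, 4907 and 6097 CPM after La knockdown. Every knockdown library lay below every control library, and control replicate 1 stood well above the rest. The log2 fold change of -0.43 (SE 0.21, 95% interval -0.90 to 0.04) did not pass the threshold (edgeR adjusted p = 0.232). Without control replicate 1 it was -0.28 (edgeR adjusted p = 0.603, with a range of 0.161 to 0.774 over all alternatives).

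Glycine GCC followed. Its sum was 6717, 6835 and 8122 CPM with control siRNA and 6788, 6492 and 7485 CPM after La knockdown. The arms overlapped, and the log2 fold change was -0.07 (SE 0.20, 95% interval -0.50 to 0.37, edgeR adjusted p = 0.826). TRG-GCC2-1, the copy that sits apart from the tandem units, had a fitted log2 change of -0.13 with SE 0.22 (adjusted p = 0.698, edgeR), and the 4 copies in the units ran from -0.07 to -0.04.

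**Figure D2:**
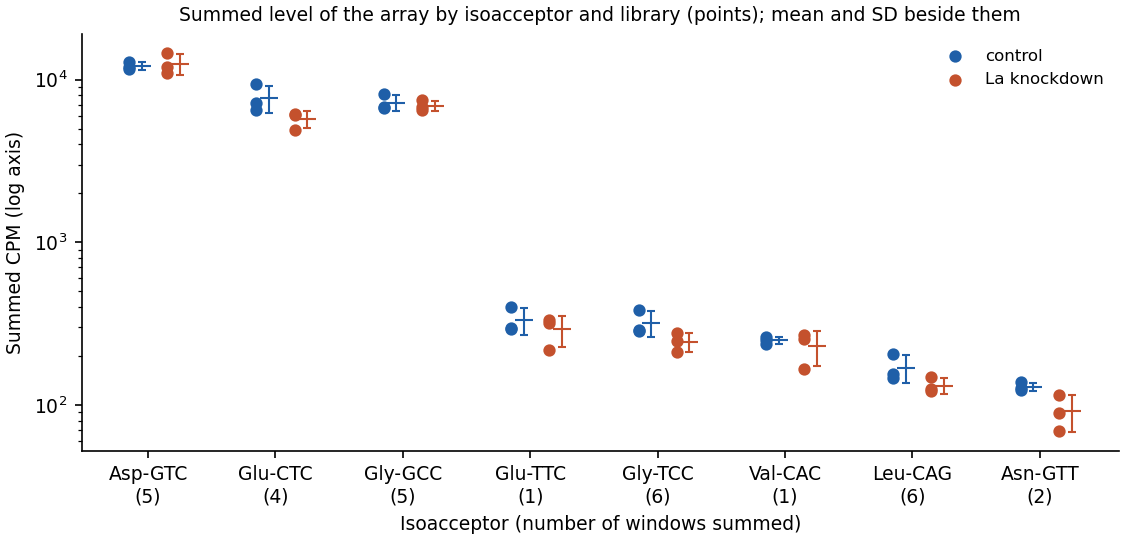
Summed CPM on a log axis for each isoacceptor of the array, 1 point per library (blue, control; orange, La knockdown), with the mean and SD (n = 3) beside the points. The arms do not overlap for Glu-CTC, Gly-TCC and Asn-GTT, and no sum passed the threshold.

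The less-read isoacceptors had fitted values below 0 with TMM factors, and none passed the threshold. With upper quartile factors the sums of Glu-TTC and Val-CAC had values above 0 (0.13 and 0.19). Glycine TCC summed to 384, 285 and 287 CPM with control siRNA and 248, 210 and 275 CPM after La knockdown. Every knockdown library was below every control library, and the fitted log2 change was -0.39 with SE 0.24 (adjusted p = 0.305, edgeR). Asparagine GTT summed to 137, 124 and 127 CPM and then to 89.3, 69.2 and 115 CPM. Here too the arms stood apart, and the fitted log2 change was -0.51 with SE 0.25 and 95% interval -1.07 to 0.05 (adjusted p = 0.231, edgeR).

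The 2 Asn-GTT genes differ in the sequence number of their names. TRN-GTT2-2 had 388, 317 and 375 control counts and 178, 179 and 270 knockdown counts, a fitted log2 change of -0.54 (adjusted p = 0.222, edgeR). TRN-GTT1-1 had 141, 104 and 116 control counts and 72, 57 and 97 knockdown counts, a fitted log2 change of -0.42 (adjusted p = 0.374, edgeR). Neither passed the threshold.

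Glutamate TTC and valine CAC each have 1 gene in the array, and in both the arms overlapped. Glu-TTC was 401, 294 and 298 CPM with control siRNA and 320, 218 and 334 CPM after La knockdown (log2 fold change -0.20, SE 0.26, edgeR adjusted p = 0.607). Val-CAC was 261, 251 and 237 CPM and then 166, 269 and 253 CPM (log2 fold change -0.12, SE 0.26, edgeR adjusted p = 0.764). Knockdown replicate 1 was the low library for Val-CAC, while the other two lay within or above the control range.

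Leucine CAG summed to 207, 147 and 155 CPM with control siRNA and to 126, 121 and 147 CPM after knockdown. The arms overlapped narrowly, at 147 CPM, and the sum's log2 fold change of -0.37 did not pass (SE 0.24, edgeR adjusted p = 0.325). Its copies differed in level. TRL-CAG1-1 to TRL-CAG1-5, 1 in each tandem unit, had 31 to 64 control counts and 30 to 54 in the knockdown libraries, with log2 fold changes from -0.07 to 0.07. TRL-CAG1-6, which lies beyond the tandem units on the other strand, has the same sequence number in its name, which in tRNA gene names marks an identical mature tRNA. It had 516, 315 and 343 counts with control siRNA and 171, 196 and 257 after La knockdown. All knockdown values lay below all control values, and the fitted log2 change was -0.66 with SE 0.27 (adjusted p = 0.164, edgeR), the lowest of the named genes.

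The ratio of TRL-CAG1-6 to the mean of copies 1 to 5 was 9.21, 8.51 and 6.67 in control replicates 1 to 3. It was 4.72, 4.52 and 6.03 in knockdown replicates 1 to 3. On the log2 scale the mean ratio was 3.01 ± 0.24 with control siRNA and 2.34 ± 0.22 after knockdown (SD, n = 3 each), a difference of -0.67. An exact permutation test, two-sided, gave p = 0.1, the smallest that 3 against 3 libraries allow. The comparison was chosen after the counts had been seen. Since the ratio stood between 4.52 and 9.21, the Leu-CAG copies did not have nearly equal counts, unlike the Asp-GTC copies of the array. Why they differed was not tested.

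**Figure D3:**
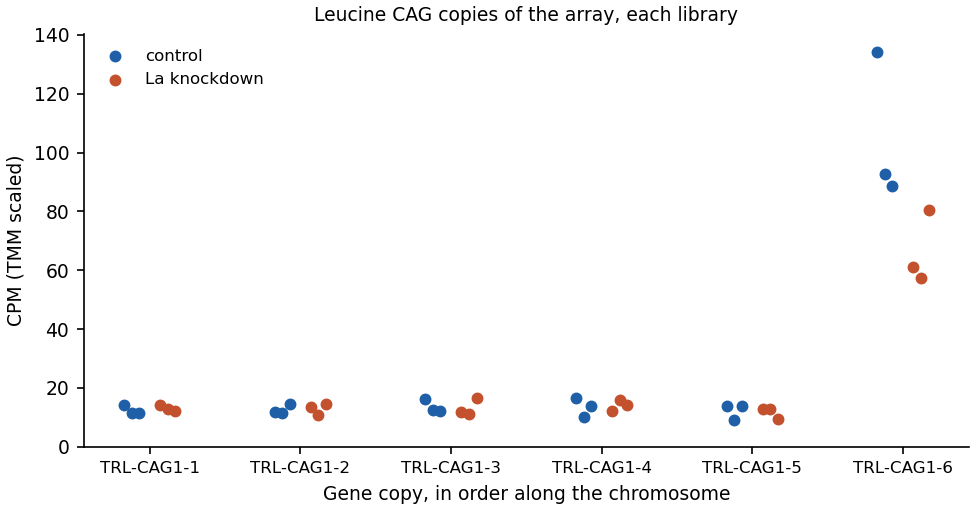
CPM of the 6 Leu-CAG windows of the array in each library (blue, control; orange, La knockdown), in order along the chromosome. TRL-CAG1-6 lies far above the other copies in every library, and its knockdown points lie below its control points.

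Gly-TCC2 copies had similar levels in the tandem units and beyond them. TRG-TCC2-6, next to TRL-CAG1-6, had 291, 191 and 217 control counts and 118, 125 and 158 knockdown counts, a fitted log2 change of -0.55 with SE 0.26 (adjusted p = 0.222, edgeR). TRG-TCC2-4 in a tandem unit had 285, 187 and 227 control counts and 147, 132 and 172 knockdown counts, a fitted log2 change of -0.37 (adjusted p = 0.357, edgeR). TRG-TCC2-3 had the smallest change of these copies, -0.24 (edgeR adjusted p = 0.518). TRG-TCC4-1, a gene with its own RefSeq sequence number, was named after its values were seen and was read less, with 75, 38 and 58 control counts and 29, 39 and 39 knockdown counts.

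At the far end of the region lie 2 tested windows without a RefSeq tRNA gene, chosen for description after their values had been seen. Window tRNA_52518 (chr1:161621525-161621924) had 166, 85 and 80 counts with control siRNA and 23, 14 and 60 after La knockdown. The arms stood apart, and knockdown replicate 3 (18.8 CPM) came close to the lowest control library (20.6 CPM). The log2 fold change was -1.51 (SE 0.51, 95% interval -2.64 to -0.38), the lowest of the array, and it did not pass the threshold (edgeR adjusted p = 0.119).

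The call for tRNA_52518 depended on the fit. DESeq2 called it (log2 fold change -1.44, adjusted p = 0.0392), and so did the fit without knockdown replicate 3 (-2.35, edgeR adjusted p = 0.0216), which called 8.6% of all windows lower. The authors' deposited table gives it -1.71 (log2) with an adjusted p of 0.0052, as the 1 array window called lower, where 0.149% of all windows in that table were. For the other 34 array windows the authors' deposited table lists an adjusted p of 1. Window tRNA_51213 (chr1:161612568-161612967) had 51, 24 and 29 control counts and 13, 14 and 23 knockdown counts, a fitted log2 change of -0.80 (adjusted p = 0.233, edgeR).

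The second comparison set the array beside tRNA genes elsewhere. The array held 2.73%, 2.75% and 3.25% of all counts in control replicates 1 to 3 and 2.61%, 2.32% and 2.70% in knockdown replicates 1 to 3. The mean went from 2.91% ± 0.296 to 2.54% ± 0.198 (SD, n = 3 each), and the arms did not overlap (exact permutation test, two-sided p = 0.1, adjusted 0.1 over 3 shares). Without control replicate 3 the difference went from -0.369 to -0.198 percentage points. With the 50 most read windows left out of the total, the difference was -0.276 percentage points (exact permutation p = 0.6). The other tRNA windows held 12.8%, 12.6% and 12.8% of all counts with control siRNA and 8.52%, 7.88% and 10.6% after La knockdown (exact permutation p = 0.1).

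Of tRNA counts alone the array held more in each knockdown library than in any control library. It held 17.6%, 18.0% and 20.3% of tRNA counts with control siRNA and 23.4%, 22.8% and 20.4% after La knockdown. The mean went from 18.6% ± 1.50 to 22.2% ± 1.62 (SD, n = 3 each), with control replicate 3 and knockdown replicate 3 nearly touching. The difference of 3.57 percentage points had p = 0.1 (exact permutation test, two-sided), so it did not pass the threshold, which this design cannot reach. The other tRNA windows include many other isoacceptors. Median log2 fold changes of Asp-GTC, Glu-CTC and Gly-GCC were 0.05, -0.42 and -0.05 in the array. Windows of the same isoacceptors elsewhere had much the same medians, 0.03, -0.48 and -0.09. Leu-CAG differed more, with -0.01 in the array and -0.49 elsewhere.

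**Figure D4:**
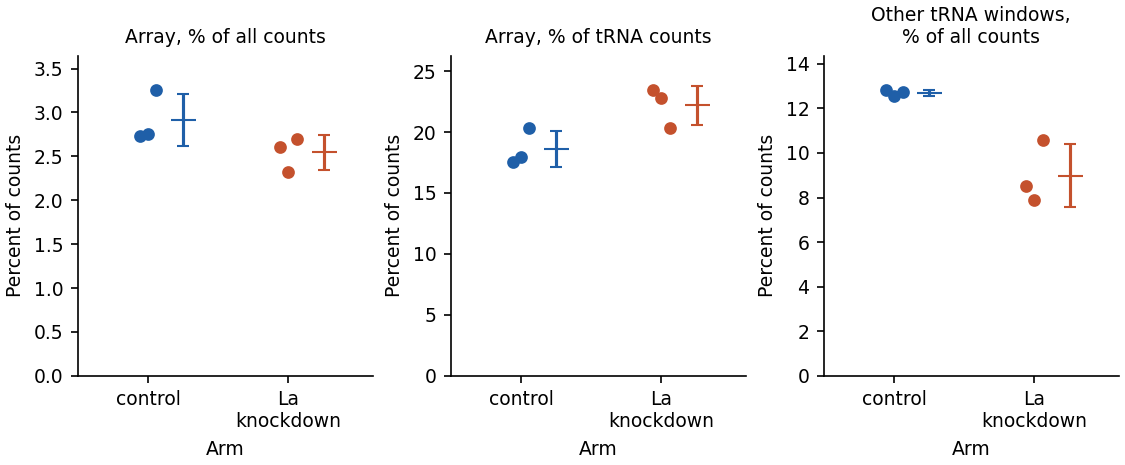
Percent of counts in each library (points) with the mean and SD (n = 3) for the array as a share of all counts, the array as a share of tRNA counts, and the other tRNA windows as a share of all counts. The array goes from 18.6% to 22.2% of tRNA counts while the other tRNA windows go from 12.7% to 8.99% of all counts.

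Each isoacceptor of the array was then set against its own copies elsewhere. The log2 ratio of array counts to counts of the same isoacceptor elsewhere was compared between the arms for 8 isoacceptors. The lowest adjusted p was 0.4 (exact permutation test). With 3 against 3 libraries this test gives no p below 0.1, so no ratio could pass the threshold and the test cannot decide. For Asp-GTC the ratio was -0.69 ± 0.02 with control siRNA and -0.67 ± 0.01 after knockdown (SD, n = 3 each), a difference of 0.02. For Glu-CTC it was 0.07 ± 0.02 and 0.12 ± 0.02, a difference of 0.05 (exact permutation p = 0.1 before adjustment). For Gly-GCC, Gly-TCC, Glu-TTC and Leu-CAG the differences were 0.03, 0.07, 0.04 and 0.14. Identical copies inside and outside the array cannot be told apart by reads from the mature tRNA, which limits what these ratios can show.

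The widest differences were for Val-CAC (0.37) and Asn-GTT (0.36). TRV-CAC11-1 on the short arm of the same chromosome had 3288, 1506 and 1240 counts with control siRNA and 282, 188 and 694 after La knockdown, and was called lower (log2 fold change -2.11, edgeR adjusted p = 0.0390). TRN-GTT24-1, elsewhere on chromosome 1, was also called lower (-1.41, edgeR adjusted p = 0.0375). TRV-CAC1-1 of the array had 1005, 854 and 920 control counts and 466, 918 and 805 knockdown counts, a fitted -0.12. Most copies elsewhere changed less than the called ones. Over the windows tested elsewhere the median log2 fold change was -0.16 for Val-CAC and -0.52 for Asn-GTT, beside -0.12 and -0.48 in the array. Of the isoacceptors present in the array, 1 of 16 Asn-GTT and 2 of 13 Val-CAC windows tested elsewhere were called lower, and 0 of the 31 tested for the other 6 isoacceptors.

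**Figure D5:**
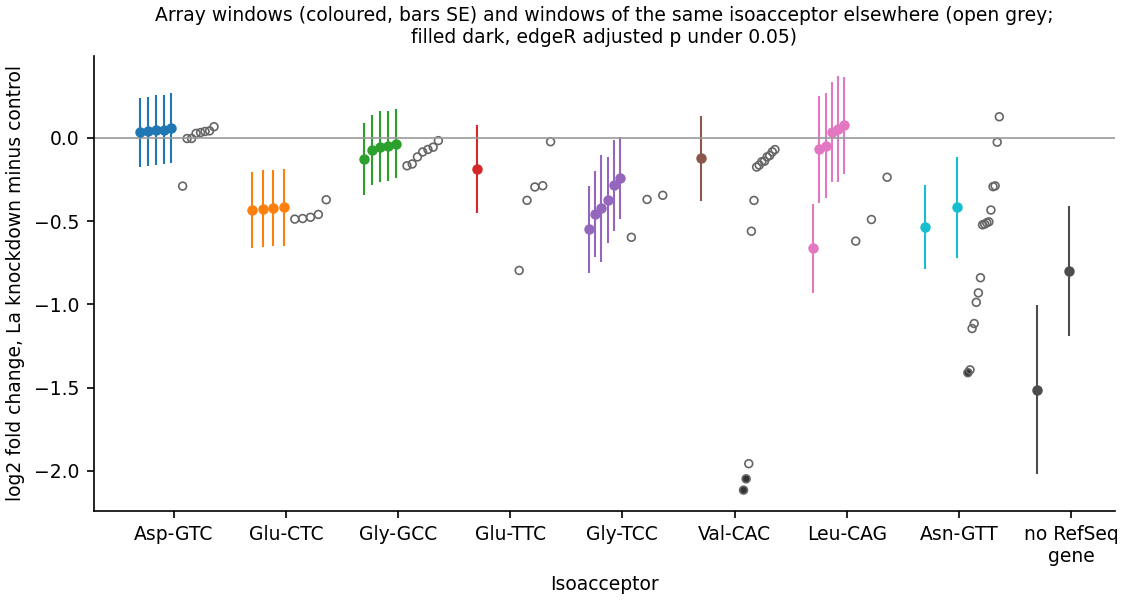
Log2 fold change (La knockdown minus control) of the tested array windows by isoacceptor, with bars for the SE, beside windows of the same isoacceptor elsewhere as grey circles, filled where edgeR's adjusted p was under 0.05. The Asp-GTC copies elsewhere run from -0.29 to 0.07 and those of the array from 0.03 to 0.06, and the called windows belong to Val-CAC and Asn-GTT genes outside the array.

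The make-up of the array by isoacceptor was compared as well. The exact permutation test used gives no p below 0.1 with 3 against 3 libraries, so no share could pass the threshold. Glu-CTC made up 32.0%, 24.8% and 24.4% of array counts in control replicates 1 to 3 and 21.6%, 21.1% and 22.8% in knockdown replicates 1 to 3. Asp-GTC made up 39.9%, 45.1% and 44.0% and then 51.3%, 47.1% and 44.9%. The lowest adjusted p over the 8 isoacceptors was 0.32 (exact permutation test, chosen after the data were seen). The unadjusted p was 0.1 for Glu-CTC and Asn-GTT and 0.2 for Asp-GTC.

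As a reference, a list of 21 other genes read by RNA polymerase III was used, of which 20 had a window. Of the 21 windows tested 2 were called lower and 0 higher with edgeR, beside 0 of 32 either way in the array. Over all windows tested, 4.79% were called lower and 0.658% higher. The median log2 fold change of the 21 windows was 0.04 (-0.04 with library size alone), beside -0.16 in the array. With so few calls, the counts do not set the list apart from the array.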

How the data were processed

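Small RNA of 6 HEK293T libraries was analysed. The authors deposited raw read counts per window. The comparison the authors deposited lists for each window log2 values (fold change and CPM), an F statistic, which is a score, and p-values before and after adjustment. Trim Galore, Bowtie2, bedtools, edgeR and GRCh38 are named in the submitters' processing notes. The handling of reads with several positions and the use of strand are not given in the sources used here, and antisense genes cannot be separated.

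A tRNA window took a RefSeq name where the gene's 5′ end lay within 10 bp of the start site, which named 388 of 534. Genes were placed in GENCODE release 29. All windows were fitted at once with edgeR 4.0.16 in R 4.3.3 (filterByExpr defaults, TMM factors, quasi-likelihood test, Benjamini-Hochberg threshold 0.05). The code was tested on simulated data. Isoacceptor sums replaced the array's named rows in 1 such fit. Each SE is the log2 fold change divided by the square root of F. Single values per library were compared by exact permutation tests (scipy 1.17.1). Such a p is the share of assignments of libraries to arms with a difference at least as large. All p-values rest on these 6 libraries.

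The members and lists were chosen with earlier results of these data known. Named windows were any called one and, for each isoacceptor, the most read window and those with the lowest and highest fold change.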

Additional observations from a re-analysis of the deposited data

How the results depend on the processing

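The count of array windows called lower was 0, against 1 in DESeq2, 1 in the unfiltered fit and 1 with a replicate block, and it ranged from 0 to 1 over the fits without 1 library, the 1 arising without knockdown replicate 3. Of all windows, DESeq2 called 7.14% lower, the unfiltered fit 0.476%, the fit with the block 8.27% and the fit without knockdown replicate 3, 8.6%. In each case the window was tRNA_52518 (log2 fold change -1.74 without a filter, edgeR adjusted p = 0.000731, and -1.66 with the replicate block, edgeR adjusted p = 0.00474). Over all alternatives its adjusted p ran from 0.000731 to 0.333. Called higher windows stayed at 0 in each fit. The median of the array, -0.16, became 0.16 with upper quartile factors and -0.38 without a filter, and ranged from -0.35 (without knockdown replicate 3) to -0.12 over the fits without 1 library. Upper quartile scaling put the all-window median at 0.26, and otherwise the cause was not tested. Of 280 values of the 20 windows followed over the alternatives, 276 kept their side of the threshold and 4, all of tRNA_52518, passed it. Among the 280 values, 23 changed sign without a call. The 8 isoacceptor sums gave 0 calls in every fit run, and 11 of their 96 values over the alternatives changed sign. Same-numbered libraries had correlations of their deviations of 0.13, 0.22 and -0.45. These values cannot decide whether the replicate numbers pair the libraries, and no pairing is stated. Leaving out 1 library gave differences from -0.46 to -0.20 percentage points for the array's share of all counts and from 2.94 to 4.48 for its share of tRNA counts. Without knockdown replicate 1, edgeR called 0 windows in the whole table. The Leu-CAG copies in the tandem units, with 30 to 64 counts, were limited by depth.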
